A study of Mus musculus with 3 samples.

Results

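Broad HNF4A peaks were examined in mouse hepatoblasts, the cells of the fetal liver from which hepatocytes and bile duct epithelium arise. Members were chosen by the width and position of the called regions: a broad peak is a region of the deposited HNF4A list that spans 700 bp or more, counted with both end bases, and that lies more than 10 kb from any region called in input chromatin. There were 845 of them among 11703 HNF4A peaks. Another 3 nuclear peaks of that width lay within 10 kb of input and were left out, 1 on chromosome 19 and 2 on the X chromosome. Since the measured width of the HNF4A calls and their distance to input selected the members, width and HNF4A score, which come from the same peak calls, are given as a description without a test. Broad peaks were set beside the 5882 HNF4A peaks over 365 bp and up to 530 bp wide that met the same limit on input, called middle-width peaks here.

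The cells were DLK1+ hepatoblasts enriched by magnetic sorting from pooled livers of wildtype C57BL/6 embryos at embryonic day 14.5, without treatment. The design held 3 chromatin immunoprecipitation sequencing (ChIP-seq) libraries, 1 with an HNF4A antibody, 1 with a FOXA2 antibody and 1 of input chromatin without antibody. The FOXA2 list held 9338 peaks and the input list 1263 regions. With 1 library per group, every comparison below is between classes of peaks in these lists, no p-value was computed, and intervals cover counting error only. The depth of the libraries is unknown. Positions refer to the mm9 build, and no gene annotation or sequence of that build was used here, so peaks are named by position.

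HNF4A is a nuclear receptor that binds DNA as a homodimer at direct repeats and maintains the expression of secreted proteins and metabolic enzymes of the liver. FOXA2, of the forkhead family, recognises its sites even in compact chromatin and acts at many liver enhancers together with HNF4A. A ChIP-seq peak from a factor bound at a single position is usually about as wide as the sheared fragments allow. A wider call can hold several bound positions, an unevenly covered region or a low, extended signal, and a list of regions without a coverage track does not tell these apart.

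Broad peaks formed the upper tail of a continuous range of widths. Their median width was 793 bp (interquartile range 735 to 886 bp), against 429 bp (395 to 471 bp) for middle-width peaks. They made up 7.26% of the 11646 HNF4A peaks more than 10 kb from input and 12.9% of the bases these peaks cover, 0.702 of 5.43 Mb. Nothing in the distribution separated them from the next narrower peaks: 539 peaks measured from 600 to under 650 bp, 347 from 650 to under 700 bp and 277 from 700 to under 750 bp. Only 86 broad peaks exceeded 1 kb and 16 exceeded 1.2 kb. Just inside the limit, the 4 peaks of exactly 700 bp had scores of 18, 18, 19 and 19, and none overlapped FOXA2. Just outside, the 8 peaks of 699 bp had scores of 16 to 49 with a median of 23.5, and 3 of them overlapped FOXA2.

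**Figure D1:**
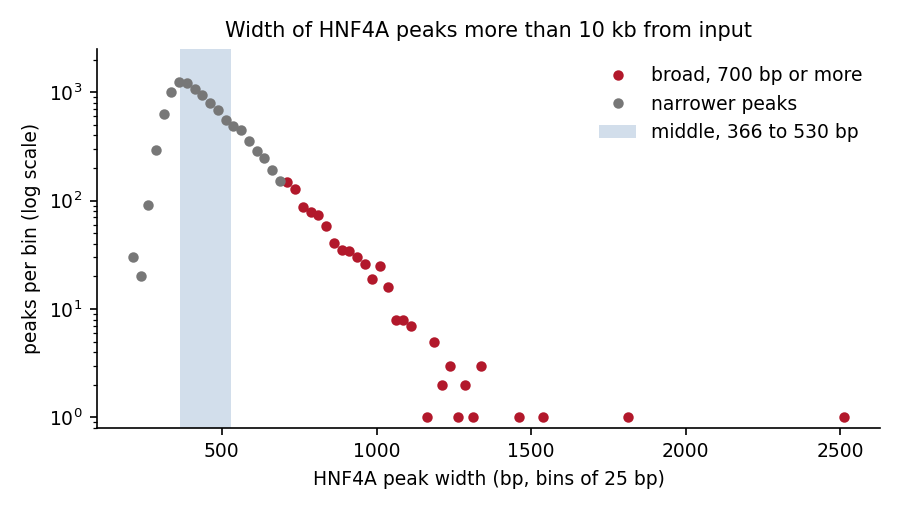
Number of HNF4A peaks (log scale) by width in bp, in bins of 25 bp, for all 11646 peaks more than 10 kb from input, with 1 point per filled bin, broad peaks in red and the range of middle-width peaks shaded. The 845 broad peaks continue the falling right side of the distribution without a separate mode, and the widest stands alone at 2505 bp.

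Members of this class were found on every autosome and on X. Their share of the HNF4A peaks of a chromosome ran from 5.56% on chromosome 3 (95% Wilson interval 4.04 to 7.60%) to 8.99% on chromosome 17 (6.70 to 12.0%) among the autosomes, and these intervals overlapped. On X there were 6 broad peaks among 121 (4.96%, 2.29 to 10.4%). The nearest input region to any broad peak lay 39863 bp away.

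The 10 widest peaks spanned 1277 to 2505 bp and had scores of 16 to 34, with 8 of the 10 at or below 20. The widest, chr18:65408364-65410868, had a score of 26, above the median of 23 for all peaks, and stood 23672 bp from the centre of the closest FOXA2 peak. The second, chr8:87184155-87185976 (1822 bp), stood at the lowest score of the list, 16, and held a FOXA2 peak that was itself at the lowest FOXA2 score, 11. The third, chr5:91069438-91070984 (1547 bp, score 19), held a FOXA2 peak of score 23 whose centre lay 430 bp to the left of the HNF4A centre. Among the 10, chr10:96148770-96150047 (1278 bp, score 34) had the highest score and was the only one with 2 FOXA2 peaks. The other six, on chromosomes 2, 4, 11, 14 and 19, had scores of 17 to 20 and no FOXA2 overlap. Thus 3 of the 10 widest peaks met FOXA2, where 24.4% of all 11646 peaks did, and 5 had another HNF4A peak within 12500 bp, where 43.6% of all did. Counts so near these background shares show nothing about the 10.

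The score of broad peaks lay close to the threshold of the list. Their median was 19 (interquartile range 17 to 25), against 25 (19 to 36) for middle-width peaks, 22 for peaks over 530 and under 700 bp and 23 for peaks of 365 bp or less. Scores of 16 or 17, the lowest values of the list, were held by 221 broad peaks, 26.2% (23.3 to 29.2%), against 15.2% (14.3 to 16.1%) of middle-width peaks and 18.3% of all peaks more than 10 kb from input. At the other end, 73 broad peaks scored 36 or more, 8.64% (6.93 to 10.7%), against 25.9% (24.8 to 27%) of middle-width peaks and 21.4% of all. The lower score of the broad class was therefore present at both ends of its distribution. Among the broad peaks themselves the median score was 19 or 20 in each of 5 width groups, but high scores thinned out in the widest. Scores of 36 or more were held by 10.5% from 700 to under 750 bp, 10.2% from 750 to under 800 bp, 9.18% from 800 to under 900 bp, 4.59% from 900 to under 1000 bp and 3.49% at 1000 bp and more. Scores of 23 or more, the median of all peaks, were held by 33.6% (28.3 to 39.3%) in the first of these groups, 38.0% in the second and 18.6% (11.8 to 28.1%) in the last. Spearman's rho was -0.03 across the 845 peaks, which are regions of 1 library and not independent replicates.

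**Figure D2:**
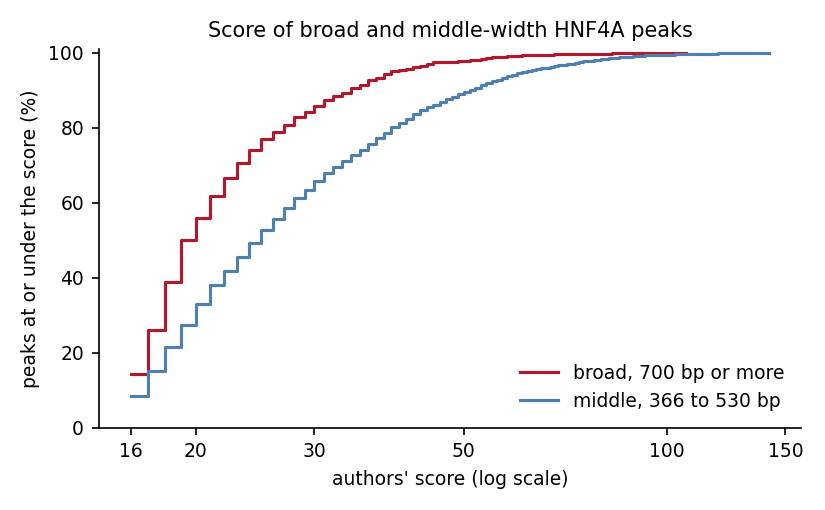
Cumulative share of peaks (%) at or under each value of the authors' HNF4A score (log scale), for the 845 broad and the 5882 middle-width peaks. The broad curve lies above the middle-width curve from the lowest scores on, with medians of 19 and 25.

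A few broad peaks nonetheless had high scores. The highest, chr10:79794500-79795245 (746 bp), scored 107 and ranked 23rd among the 11646 peaks; it had no FOXA2 overlap, although a FOXA2 centre lay 876 bp from its own. Next came chr15:85601816-85602831 (1016 bp, score 83), with a FOXA2 peak of score 25, and chr7:150472461-150473191 (731 bp, score 74), with a FOXA2 peak of score 15 centred 27 bp away. A broad FOXA2 region of 790 bp, at the low score of 12, overlapped chr10:118202806-118203510 (705 bp, score 68), so at this site both lists held a wide call. Then came chr4:144870605-144871401 (score 67), whose nearest FOXA2 centre was 127492 bp away. Of the 10 highest-scoring broad peaks, with scores of 55 to 107, 5 overlapped FOXA2 (24.4% of all peaks did) and 6 had an HNF4A neighbour within 12500 bp (43.6% of all). Both shares were higher at high scores: among broad peaks at 36 and above they were 43.8% and 56.2%. Counts so near these shares show nothing particular about the 10. The last place was a tie of 3 peaks at 55, settled by position; 1 of these had no FOXA2 overlap and another had no such neighbour, so either count could be 1 lower.

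FOXA2 occupancy, which had no part in choosing the members, was met at 240 broad peaks by an overlap of at least 1 bp. This is 28.4% (25.5 to 31.5%), against 24.4% of all 11646 peaks and 25.5% (24.4 to 26.6%) of middle-width peaks. The share exceeded that of middle-width peaks by 2.92 percentage points (Newcombe interval -0.229 to 6.24 points), an interval that includes 0. Whether 0 was included depended on the setting. Against all peaks under 700 bp the difference was 4.34 points (1.29 to 7.57). With FOXA2 centres required inside the HNF4A peak it was 3.24 points (0.111 to 6.55), and with at least 100 bp shared 3.17 points (0.027 to 6.49). The interval did include 0 with FOXA2 peaks at or above their median score (1.73 points, -1.01 to 4.70). It also included 0 at width limits of 600, 800 and 1000 bp, and with no limit or 50 kb on the distance to input. With middle-width peaks extended to 793 bp the difference was 2.44 points (-0.708 to 5.76). The share of broad peaks did not grow along the width groups, with 26.4% from 700 to under 750 bp, 32.5% from 750 to under 800 bp, 27.1% from 800 to under 900 bp, 29.4% from 900 to under 1000 bp and 29.1% at 1000 bp and more. A wider region can meet more FOXA2 peaks by its size alone. When each middle-width peak was extended about its centre to 793 bp, its class rose only from 25.5% to 26.0%, so few FOXA2 peaks lay just outside middle-width peaks.

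At like HNF4A score the contrast in FOXA2 overlap was larger. In middle-width peaks the FOXA2 share rose with score, from 15.0% (12.8 to 17.5%) at scores of 16 or 17 to 37.8% (35.4 to 40.3%) at 36 and above, and broad peaks were concentrated at the low end. Weighted to the scores of the broad peaks, middle-width peaks had a FOXA2 share of 20.8%, which is 7.56 points below the 28.4% of broad peaks. After extension to 793 bp the weighted share was 21.3%. The broad share was the higher in all 6 score groups, and the interval of the difference excluded 0 in 3 of them. Peaks over 530 and under 700 bp also lay above middle-width peaks in each group, from 16.6% at 16 or 17 to 44.4% at 36 and above, where they also exceeded the 43.8% of broad peaks. The higher share at like score was therefore not limited to the broad class. At scores of 16 or 17 it was 24.9% (19.6 to 31.0%) in broad peaks, 9.86 points higher (4.06 to 16.3). At 20 to 22 it was 27.9%, 7.65 points higher (0.323 to 16), and at 28 to 35 it was 41.6%, 13.3 points higher (3.13 to 24.0). The smallest difference, 1.65 points (-4.07 to 8.21), was found at scores of 18 or 19. At 23 to 27 it was 7.78 points (-0.318 to 16.9) and at 36 and above 6.03 points (-5.04 to 17.7). This contrast holds for overlap with the whole peak. For FOXA2 centres in an equal window of 430 bp about the HNF4A centre, the weighted difference was only 1.28 points. In that window the broad share was the lower at scores of 18 or 19 (16.3% against 17.6%), 20 to 22 (16.4% against 19.3%) and 36 and above (37.0% against 37.1%). It was the higher in the other score groups. For a FOXA2 centre within 100 bp of the HNF4A centre, the weighted difference was -6.98 points. The shares were 9.23% of broad peaks and 16.2% of middle-width peaks weighted to the broad scores.

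**Figure D3:**
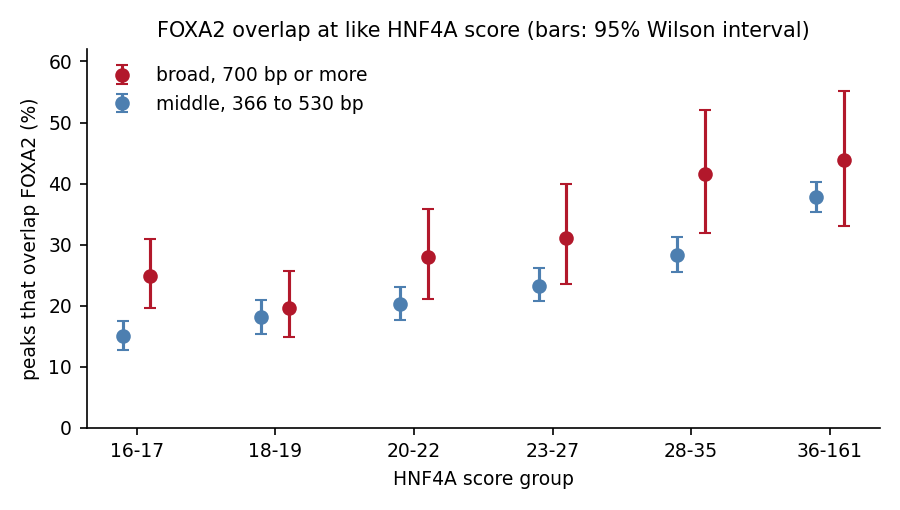
Share of HNF4A peaks (%) that overlap a FOXA2 peak by at least 1 bp, by group of HNF4A score, for broad and middle-width peaks, with 95% Wilson intervals. Broad peaks lie above middle-width peaks in each group, with the widest gap at scores of 28 to 35 (41.6% against 28.3%) and the narrowest at 18 or 19 (19.7% against 18.1%).

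FOXA2 centres lay less tightly about the middle of broad peaks than of middle-width peaks. Over the 249 pairs of a broad HNF4A peak and an overlapping FOXA2 peak, the median distance between centres was 137 bp (interquartile range 73.5 to 221 bp), against 51.5 bp (24.5 to 90.1 bp) over 1504 pairs with middle-width peaks. Relative to the distance from the centre to the end of the HNF4A peak, these medians were 0.335 in broad peaks, 0.291 in peaks over 530 and under 700 bp and 0.235 in middle-width peaks, a smaller contrast. A wide peak admits more distant centres, so the same search window was also used for both classes. Within 500 bp of the HNF4A centre a FOXA2 centre was found for 28.4% of broad and 25.7% of middle-width peaks (24.7% of all), and within 100 bp for 9.23% (7.46 to 11.4%) and 20.4% (19.4 to 21.5%), against 17.8% of all. Of the 240 broad peaks with a FOXA2 centre within 500 bp, 78 had it within 100 bp, 32.5% (26.9 to 38.7%), whereas 1200 of 1513 middle-width peaks did, 79.3% (77.2 to 81.3%). The most filled 50-bp step was 100 to 150 bp for broad peaks, with 54 peaks, and 0 to 50 bp for middle-width peaks, with 740. The list gives no summit, so these distances run from the midpoint of the call, and where the HNF4A signal was highest inside a broad peak was not analysed here.

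**Figure D4:**
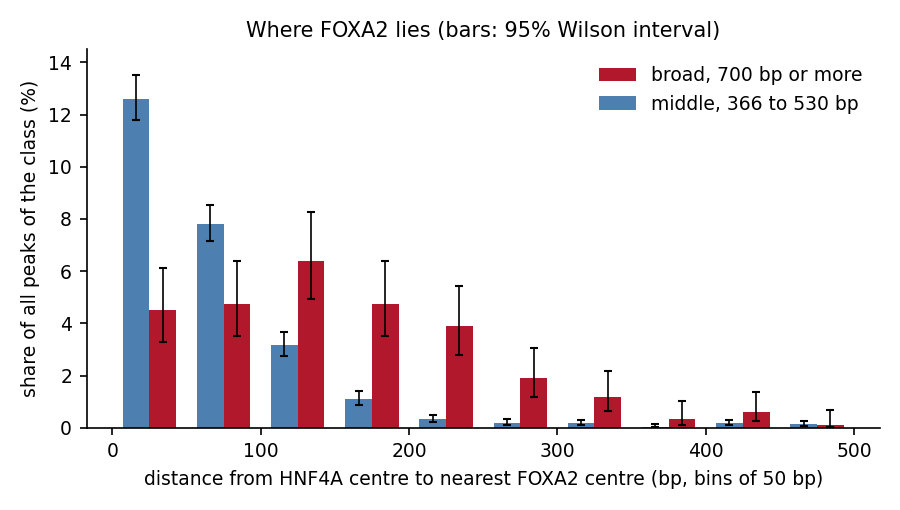
Share of all peaks of a class (%) whose nearest FOXA2 centre lies at the given distance from the HNF4A centre (bp, bins of 50 bp), for broad and middle-width peaks, with 95% Wilson intervals. Middle-width peaks fall steeply from 12.6% in the first bin, while broad peaks stay between 3.91% and 6.39% out to 250 bp.

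Within the class, the share with a FOXA2 centre within 100 bp, among those with one within 500 bp, was 39.7% (29.3 to 51.2%), 37.0%, 33.9%, 21.9% and 12.0% (4.17 to 30.0%) over the 5 width groups from narrowest to widest. The last rests on 3 of 25 peaks, and the intervals of the first and last overlap slightly. The median distance between centres did not rise throughout, at 115, 125.2, 126.5, 206 and 188.5 bp. Neither side was preferred, with 123 FOXA2 centres to the left and 126 to the right of the HNF4A centre. In a fixed window of 430 bp about the HNF4A centre, the median width of all these peaks, 21.4% of broad peaks (18.8 to 24.3%) had a FOXA2 centre, against 23.1% of all and 24.8% of middle-width peaks, a difference of -3.37 points (-6.23 to -0.278). Weighted to the scores of broad peaks, the middle-width share in this window was 20.1%, which is 1.28 points below that of broad peaks.

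The FOXA2 peaks met by broad HNF4A peaks were close in score and width to those met by middle-width peaks. Their median FOXA2 score was 19 (binomial interval of the median 18 to 22), against 20 (19 to 21) for those met by middle-width peaks. Their median width was 377 bp (interquartile range 340 to 428 bp), against 368 bp (338 to 414 bp). Of the 249, 177 lay wholly inside the HNF4A peak, 71.1%, against 31.0% in middle-width peaks, where there is less room. A FOXA2 peak of 700 bp or more was met in 9 of the 249 pairs (3.61%), against 12 of the 1504 pairs with middle-width peaks (0.798%) and 1.37% of the pairs with all HNF4A peaks. HNF4A peaks of 531 to 699 bp met one in 14 of 538 pairs (2.6%), so a raised share was not limited to broad peaks. Within the broad class the count did not grow with width. It was 5 of 75 pairs from 700 to under 750 bp, 0 of 34 from 900 to under 1000 bp and 0 of 27 above. Wide FOXA2 calls were thus few in every class. Their share was highest with broad peaks, but this order rests on few pairs and was not tested. The scores of the 2 factors had a Spearman's rho of 0.17 over the 249 pairs and 0.14 over the 1504, as a description of pairs that share a locus and its chromatin.

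A broad HNF4A peak with 2 FOXA2 peaks was rare but made up much of that small class. There were 9 such peaks, 1.07% of broad peaks (0.561 to 2.01%), against 5 middle-width peaks, 0.085% (0.0363 to 0.199%), and 18 of all, 0.155%. No HNF4A peak had more. A wider region has more room for 2 separate FOXA2 peaks, so the choice by width itself favours a higher share in broad peaks. Peaks with 2 FOXA2 peaks were not counted at equal width. The mean number of FOXA2 peaks was 0.295 per broad peak and 0.256 per middle-width peak. Per kb of HNF4A peak these came to 0.355 and 0.588, an order that the choice by width largely sets.

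In all 9 of these peaks the FOXA2 centres fell on opposite sides of the HNF4A centre, 394 to 621 bp apart (median 530 bp). The same held in the 5 middle-width peaks, at 359 to 443 bp apart, and separate FOXA2 peaks inside a single region leave little room for another arrangement. The highest-scoring of the 9 was chr8:41658301-41659157 (857 bp, HNF4A score 61), with FOXA2 peaks at chr8:41658313-41658602 (score 32) and chr8:41658653-41659049 (score 50), both wholly inside. The widest was chr10:96148770-96150047, with FOXA2 scores of 37 and 23. In chr1:84274859-84275900 (1042 bp, score 28) the FOXA2 peaks scored 21 and 53 and lay 621 bp apart, the largest spacing. The weakest of the 9 in HNF4A, chr1:184429464-184430199 (736 bp, score 17), held FOXA2 peaks of scores 23 and 18, neither of them wholly inside.

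The other five showed the same layout at moderate scores. They were chr15:39644940-39645864 (score 31, FOXA2 scores 21 and 16), chr6:134212873-134213723 (score 31, FOXA2 27 and 33), chr1:167546784-167547638 (score 30, FOXA2 17 and 23), chr8:11458382-11459376 (score 26, FOXA2 24 and 16) and chr13:52006565-52007301 (score 21, FOXA2 24 and 24). Of the 18 FOXA2 peaks in the 9 regions, 12 lay wholly inside the HNF4A peak. Another HNF4A peak lay within 12500 bp of 4 of the 9 regions, near the 43.6% of all peaks.

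Clustering with other HNF4A peaks was much alike in the broad and the middle-width class. Another HNF4A peak lay within 12500 bp, edge to edge, of 371 broad peaks, 43.9% (40.6 to 47.3%), against 43.6% of all and 44.2% (43.0 to 45.5%) of middle-width peaks, a difference of -0.331 points (-3.88 to 3.26). Within 2 kb the shares were 14.8%, 15.1% of all and 14.9%. In clusters of 5 or more HNF4A peaks, joined at gaps of at most 12500 bp, lay 39 broad peaks, 4.62% (3.39 to 6.25%), against 4.40% of all and 4.37% of middle-width peaks. Weighted to the scores of the broad peaks, the middle-width share with a neighbour within 12500 bp was 40.9%, which is 2.99 points below that of broad peaks. Intervals of these shares are too narrow, since clustered peaks are not independent. Neighbours come from the same peak calls as the widths, so these shares are descriptions.

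**Figure D5:**
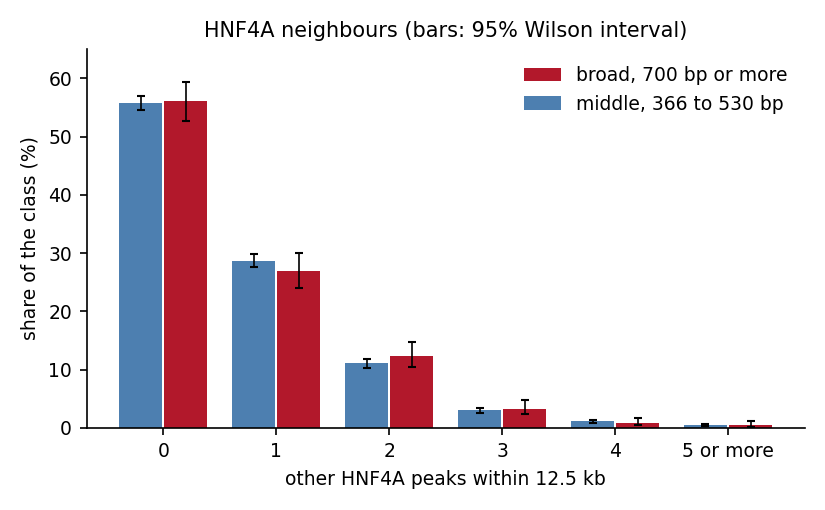
Share of each class (%) by the number of other HNF4A peaks within 12500 bp, for broad and middle-width peaks, with 95% Wilson intervals. The classes lie within each other's intervals or close to them, with 56.1% of broad and 55.8% of middle-width peaks having no neighbour.

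Where a broad peak had neighbours, the highest-scoring of them mostly outscored it. In 249 of 371 cases, 67.1%, some HNF4A peak within 12500 bp had a higher score, against 50.2% for middle-width peaks, 62.1% for peaks over 530 and under 700 bp and 55.6% of all peaks with a neighbour. The top neighbour scores themselves were alike, with a median of 27 around broad peaks and 28 around middle-width peaks and all peaks. This contrast thus largely restates the low scores of broad peaks, taken from the same calls. The nearest neighbour was itself broad in 28 of 371 cases, 7.55%, close to the 7.65% found around middle-width peaks. Broad peaks fell in 820 places, counting a lone peak or a cluster as 1 place, of which 797 held a single broad peak, 21 held 2 and 2 held 3.

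The places with 3 broad peaks differed in size. On chromosome 5 at 90860052 to 90923870, 13 HNF4A peaks with scores of 16 to 80 lay over 63.8 kb together with 11 FOXA2 peaks, and the 3 broad ones scored 16 to 49. On chromosome 4 at 40794077 to 40799852, all 3 HNF4A peaks of a 5.78-kb cluster were broad, with scores of 19 to 39. The span held 1 FOXA2 peak, which overlapped the broad peak chr4:40799092-40799852. Another FOXA2 centre lay outside the span, 1949 bp from the centre of chr4:40794077-40794892. Counting peaks of both factors, 110 broad peaks, 13.0% (10.9 to 15.5%), lay in clusters of 5 or more peaks that held both, against 12.1% of all and 12.4% of middle-width peaks. A FOXA2 centre within 12500 bp was found for 48.6% of broad and 46.2% of middle-width peaks, a difference of 2.43 points (-1.16 to 6.03).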

How the data were processed

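Each of the 3 libraries, 1 per group, had a deposited list of regions with start, end and a whole-number score. Per the submitters' processing notes the positions follow mm9. The sources used here do not give the caller, its threshold, the depth or what the score means. The deposited score was used only within its list. Positions were read as 1-based with both ends included, chromosome prefixes were removed, and the mitochondrial HNF4A peaks were left out. Overlap meant at least 1 bp. Gaps to input above 10 kb and neighbours within 12500 bp were measured edge to edge. For weighting, middle-width shares were taken at each exact HNF4A score, with 60 and above pooled, and averaged with the broad peaks' score frequencies. Shares carry 95% Wilson intervals, differences Newcombe intervals and medians binomial intervals; neighbouring peaks are not independent, so all are too narrow where peaks cluster. Overlap and neighbour counts were checked on simulated lists. The regions named are the 10 widest, the 10 highest-scoring, those with most FOXA2 peaks and those at the width limit, where ties are given in full. The members, the comparison class and these rules were chosen with earlier results of these data known. Score weighting, extension to 793 bp and the distance within 500 bp were added after seeing the data. Computation ran in Python 3.11.15 with scipy 1.17.1, pandas 2.3.3 and numpy 2.4.6, and plots were drawn in matplotlib 3.10.9.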

Additional observations from a re-analysis of the deposited data

How the results depend on the processing

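Of 80 alternative values, 58 stayed within the counting interval of the reported value, or within 1.5 times for a count. Dropping the limit on the distance to input left 848 broad peaks, and a limit of 50 kb left 842. These settings could hardly move any value, so their part of the 58 says little. With FOXA2 centres required inside the 430-bp window, the FOXA2 share of broad peaks was 21.4%, with 0.214 FOXA2 peaks per peak, and the difference from middle-width peaks changed sign to -3.37 points. With FOXA2 peaks at or above their median score, the share was 19.8% and the number 0.208. The share then exceeded that of middle-width peaks by only 1.73 points, with an interval of -1.01 to 4.70 that spans both signs. With HNF4A peaks at or above their median score, 281 broad peaks remained, with a median score of 29, a FOXA2 share of 37.7% and 0.402 FOXA2 peaks each. Their differences from middle-width peaks were 6.62 points in FOXA2 share and -4 in median score. An HNF4A neighbour was left for 35.2% of them, since this setting also dropped neighbours below the median score. With all HNF4A peaks as neighbours, the share of broad peaks was 45.4% at scores of 23 to 27, 52.8% at 28 to 35 and 56.2% at 36 and above. For FOXA2 overlap by at least 1 bp, weighting to the scores of broad peaks gave a difference of 7.56 points, and 7.1 points with extension. Neighbour distances of 5 and 25 kb gave 26.4% and 61.5%. Width limits of 600, 800 and 1000 bp left 1730, 402 and 86 peaks, of which 41.7%, 25.7% and 12.0% had the FOXA2 centre within 100 bp, among those with one within 500 bp. The difference in share with an HNF4A neighbour stayed between -0.556 and 2.99 points in 11 alternatives. No paired analysis was possible because each group has 1 library. Counts of peaks and thresholds of unknown depth limit every share.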

Other observations

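Chromosome 17, picked out after its values were seen, combined the highest autosomal share of broad peaks with the lowest FOXA2 share among them. Only 2 of its 41 broad peaks overlapped FOXA2, 4.88% (95% Wilson interval 1.35 to 16.1%), whereas on the other autosomes the share ran from 19.4% on chromosome 3 to 39.5% on chromosome 13. Middle-width peaks of chromosome 17 overlapped FOXA2 in 48 of 218 cases, 22% (17 to 28%). The median HNF4A score of its broad peaks was 18, against 19 in the whole class. The FOXA2 share of chromosome 17 is the lowest of 19 autosomes compared, and the difference was not tested.

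Some broad peaks of low HNF4A score held strong FOXA2 peaks, also a choice made after the values were seen. Such pairs were not counted in broad peaks or at other widths, so those named are examples only. The highest FOXA2 score met by middle-width peaks was 143. The strongest FOXA2 peak met by any broad peak scored 96, but its HNF4A peak, chr1:196308738-196309463, was not of low score. It scored 31, above the upper quartile of 25 for broad peaks. In chr5:89119563-89120318 (756 bp) the HNF4A score was 16, the lowest of the list, and the FOXA2 score was 81, with centres 106 bp apart. In chr4:103058337-103059311 (975 bp) the scores were 18 for HNF4A and 77 for FOXA2. The other way round, 29 of the 249 FOXA2 peaks met by broad peaks, 11.6%, stood at the lowest FOXA2 score, 11. This is near the 10.2% of pairs with all HNF4A peaks and the 9.38% of pairs with middle-width peaks, so it shows nothing particular to broad peaks.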
